A study of Mus musculus with 21 samples.

Results

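Gkn1, Pou4f2, Mras, Nkx6-1, Nkx6-3, Gm10636, Tpbgl, Hsd17b6, Aqp8 and Lncenc1 are 10 genes, of 48321 symbols counted, that were selected by their measured levels. They were picked from these data as high in a TWIST1 monomer embryonic stem cell line, with or without induction of its transgene, or as lower in dimer lines than in that line. Lncenc1 and Aqp8 had also stood out in an earlier comparison among the heterodimer lines. Of the 10 genes, 9 had their highest group mean in the monomer line. Lncenc1 did not: it was lower there than in the parental line and highest in the libraries whose label names a TCF3 dimer (below, the TCF3-labelled libraries), so its values go against the description of the set.

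RNA-seq was done on embryoid bodies, floating aggregates of differentiating mouse embryonic stem cells, collected on day 3 of differentiation. All lines derive from A2loxCre cells (strain label C57BL/6), and in all but the parental line a transgene is stably inserted under the control of a promoter that doxycycline switches on. There were 7 groups of 3 samples: the parental line treated with doxycycline, the line with the Twist1 monomer integrated but kept without doxycycline, the same line with doxycycline, and 4 lines treated with doxycycline whose integrated sequence encoded a Twist1 homodimer or a dimer of Twist1 with 1 of the E-proteins Tcf3, Tcf4 and Tcf12. Transgenes were induced for 16 h. The uninduced monomer line and the parental line differ both in the integrated sequence and in doxycycline, and for this pair the line and the treatment cannot be told apart. The labels do not say whether the 3 samples of a group came from separate cultures or how many clones each line represents, so p-values measure the spread between these samples only.

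TWIST1 belongs to the basic helix-loop-helix proteins. It pairs with a second TWIST1 molecule or with TCF3, TCF4 or TCF12, which are E-proteins, and the pair recognises E-boxes of the form CANNTG. In the early embryo it is known for its role in the mesoderm and the cranial mesenchyme. The genes of the set belong to no common pathway that is well known. They are known from other settings: stomach epithelium (Gkn1, Nkx6-3), pancreatic beta cells and ventral neural tube (Nkx6-1), retinal ganglion cells (Pou4f2), RAS signalling (Mras), water transport (Aqp8), steroid metabolism (Hsd17b6) and pluripotent cells (Lncenc1). In bulk RNA a lower level can come from fewer cells of a type or from less RNA per cell, and these cannot be told apart here.

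Promoter windows of 250 bases ending at the annotated start were taken from RefSeq (GRCm38.p6), where 9 of the 10 genes had an entry. Nkx6-3 had none. The 4 windows shown are those of the gene with the highest level per length in the monomer line (Aqp8), of the coding gene with the largest difference between the TCF3-labelled libraries and the homodimer line (Tpbgl), and of the 2 non-coding genes, whose levels followed different patterns across the groups. E-boxes of the form CANNTG are in capitals, and each sequence runs 5′ to 3′ on the gene's own strand.
Aqp8, chr7:123462044-123462293, plus strand: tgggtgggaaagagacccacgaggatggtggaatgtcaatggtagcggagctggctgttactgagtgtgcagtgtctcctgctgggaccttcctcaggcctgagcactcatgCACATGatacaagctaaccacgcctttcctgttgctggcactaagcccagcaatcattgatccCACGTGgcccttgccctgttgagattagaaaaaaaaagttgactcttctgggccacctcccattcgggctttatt
Tpbgl, chr7:99627104-99627353, minus strand: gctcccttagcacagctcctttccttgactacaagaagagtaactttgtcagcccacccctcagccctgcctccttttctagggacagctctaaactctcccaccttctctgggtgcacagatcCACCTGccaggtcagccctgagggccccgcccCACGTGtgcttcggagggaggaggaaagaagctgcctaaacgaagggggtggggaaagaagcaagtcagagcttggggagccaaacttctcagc
Gm10636, chr3:146378945-146379194, minus strand: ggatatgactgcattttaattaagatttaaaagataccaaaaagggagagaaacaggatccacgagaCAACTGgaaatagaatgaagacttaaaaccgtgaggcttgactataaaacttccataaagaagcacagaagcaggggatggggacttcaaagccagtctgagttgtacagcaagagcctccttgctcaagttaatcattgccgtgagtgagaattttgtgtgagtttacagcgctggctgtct
Lncenc1, chr13:97434720-97434969, plus strand: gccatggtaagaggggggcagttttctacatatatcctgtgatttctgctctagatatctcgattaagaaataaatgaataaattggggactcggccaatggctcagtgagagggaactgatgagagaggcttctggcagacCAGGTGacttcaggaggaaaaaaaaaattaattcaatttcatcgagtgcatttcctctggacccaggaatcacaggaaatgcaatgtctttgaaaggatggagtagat

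The Aqp8 and Tpbgl windows each held 2 E-boxes, and each pair included CACGTG. Gm10636 held CAACTG at 183 bases before the start and Lncenc1 held CAGGTG at 108 bases before it. An E-box was present in 7 of the 9 windows (77.8%), against 66.0% of 27025 mouse promoter windows of the same length. The motif CATATG was in 0 of 9 windows (3.47% of all), and CATCTG or its reverse complement CAGATG was also in 0 (14.5% of all). The motif CAGCTG was in 1, that of Mras (12.8% of all). A pair of E-boxes 5 bases apart was in 0 of 9 (0.651% of all). These are counts of letters in a short window, not of bound sites.

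Total counts ranged from 6648842 to 15999693 per sample, and 3 counts, taken as the floor, correspond to 0.188 to 0.451 CPM, the count scaled to a common library size. Levels are CPM scaled by library size and TMM factors. Twist1 stood at 5.07 ± 0.63 CPM in the uninduced monomer line, 8.10 ± 0.79 in parental samples and 612.2 ± 31.6 once the monomer was induced (SD, n = 3). Tcf3 was not raised in the TCF3-labelled libraries, at 154.0 ± 4.5 CPM against 167.0 ± 5.9 in the parental line, so that group is named by its label throughout. Tcf12 stood at 62.8 to 68.8 CPM in parental samples. It was higher in all TCF3-labelled libraries, at 91.2 to 120.0 CPM (mean 104.2), and in all TCF4 dimer samples, at 84.9 to 93.6. What this means for the labels was not tested. Among TCF12-labelled libraries Tcf12 ranged from 53.1 to 117.6 CPM (mean 92.9). Sample 1 of that group was the lowest, below every parental sample. That sample stands apart from the other 2 of its group, and results are given with and without it where it matters.

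**Figure D1:**
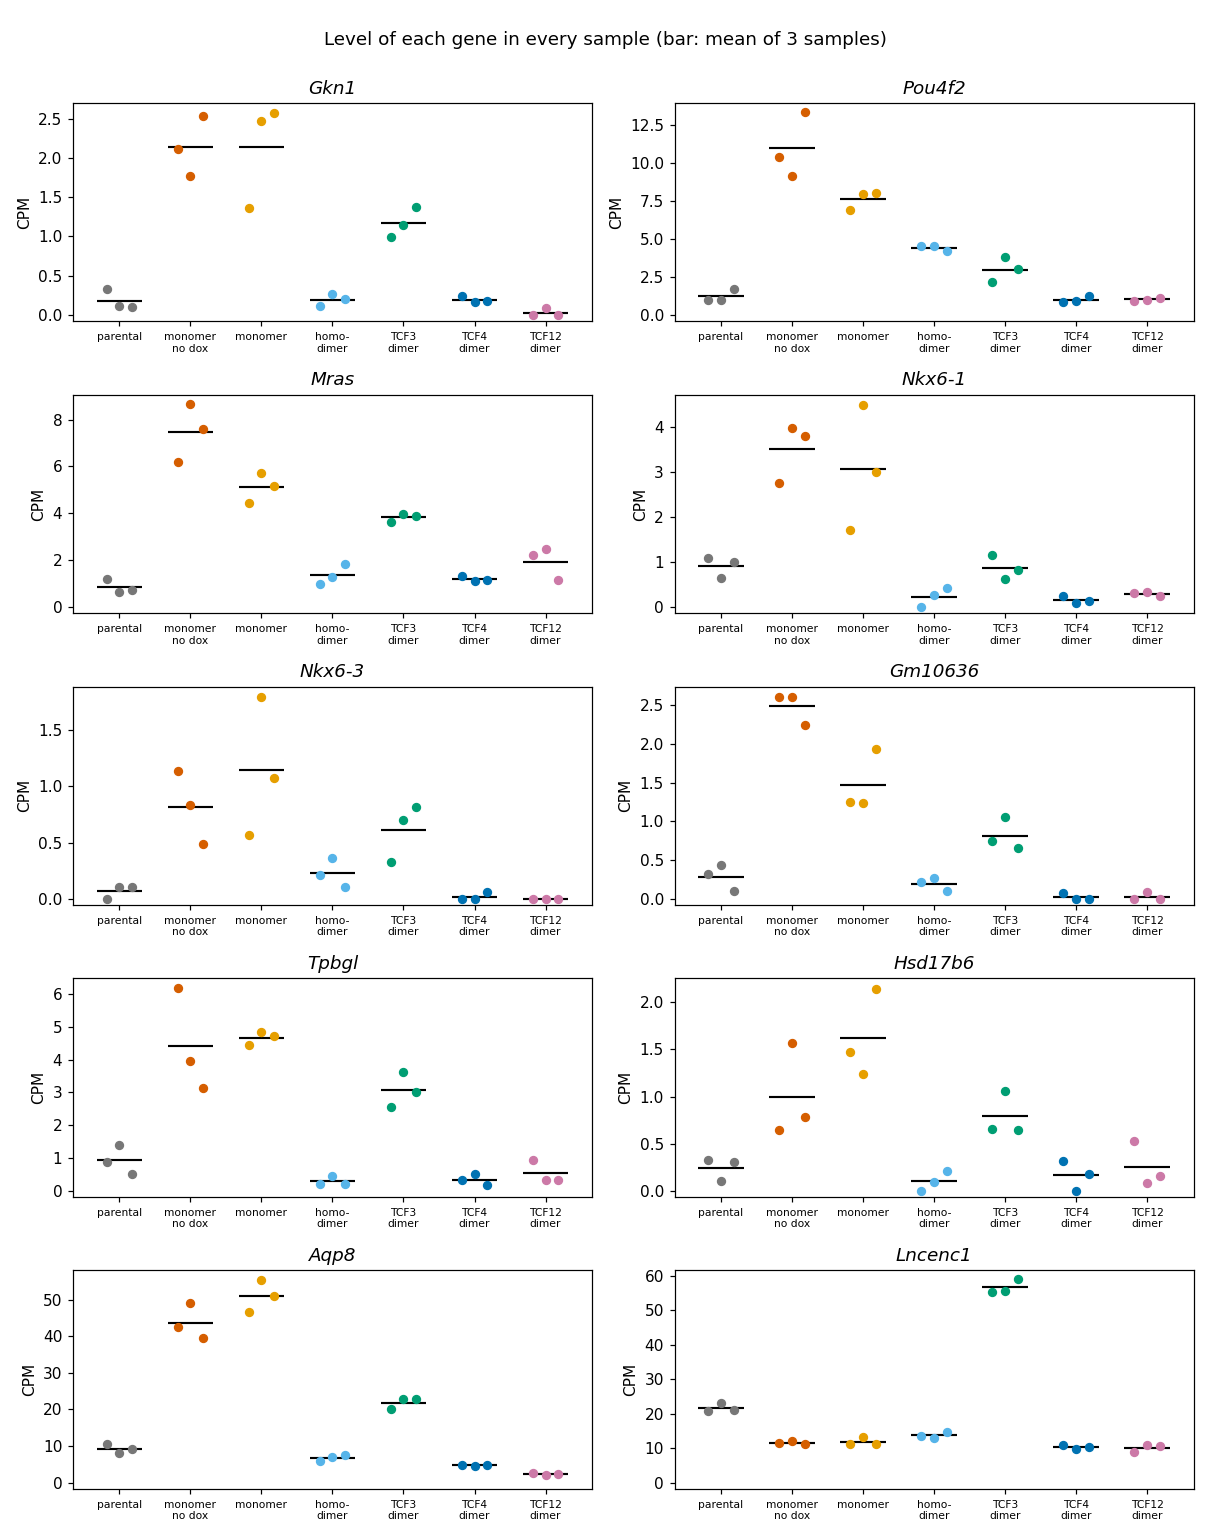
Level of each gene in CPM (linear axis) in all 21 samples, by group, with points for samples and a bar for the mean of 3. In 9 panels the 6 samples of the monomer line lie above all 12 samples of the parental, homodimer, TCF4 dimer and TCF12 dimer groups; in the Lncenc1 panel the TCF3-labelled libraries are highest, at 55.1 to 59.0 CPM.

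The set has 3 transcription factors. Pou4f2 (chr8:78433010-78436645, minus strand), a POU homeodomain factor known for retinal ganglion cell differentiation, was at 10.4, 9.19 and 13.4 CPM in the 3 uninduced monomer samples and at 6.93, 7.98 and 8.05 after induction. It was at 4.53, 4.57 and 4.21 CPM in the homodimer line and at 2.15, 3.79 and 3.01 in the TCF3-labelled libraries. All other samples lay between 0.864 and 1.71 CPM. Pou4f2 was the only one of the 9 genes for which the homodimer line ranked directly after the monomer line, above the TCF3-labelled libraries, with no overlap of samples between neighbouring groups down to that point. Its lowest 3 groups, the parental, TCF4 dimer and TCF12 dimer groups, overlapped.

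Nkx6-1 (chr5:101658139-101664996, minus strand) is a homeodomain factor required for pancreatic beta cells and ventral neural progenitors. It was at 2.76, 3.97 and 3.80 CPM in the uninduced monomer line and at 1.70, 4.50 and 3.01 after induction. The parental samples stood at 1.09, 0.650 and 1.01 CPM, which overlapped with 1.16, 0.617 and 0.812 in the TCF3-labelled libraries. The homodimer, TCF4 dimer and TCF12 dimer samples lay between 0.0 and 0.411 CPM, below every parental sample. Nkx6-1 was thus the gene of the set in which the parental line ranked directly after the monomer line.

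Nkx6-3 (chr8:23153269-23158948, plus strand), a related factor known from the stomach antrum, was rare everywhere. It had 7, 8 and 5 counts in the uninduced monomer samples, 5, 16 and 10 in the induced ones and 4, 8 and 10 in the TCF3-labelled libraries. The homodimer samples had 2, 4 and 1 counts, the 3 parental samples 2 counts in all, the TCF4 dimer samples 1 in all and the TCF12 dimer samples 0. Neighbouring groups overlapped along the whole order of means, from 1.15 ± 0.62 CPM in the induced monomer line down to 0.0 (SD, n = 3). The monomer samples still lay above all 12 samples of the parental, homodimer, TCF4 dimer and TCF12 dimer groups.

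Gkn1 (chr6:87345650-87350942, minus strand) encodes gastrokine 1, a protein secreted by gastric surface mucous cells. It was at 2.11, 1.77 and 2.54 CPM in the uninduced monomer line and at 1.36, 2.47 and 2.58 after induction, so the 2 states overlapped. The TCF3-labelled libraries stood at 0.991, 1.15 and 1.38 CPM, just reaching the lowest induced monomer sample. The other 12 samples had 3 counts or fewer each (0.0 to 0.327 CPM), which is at or below the level of 3 counts.

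3 genes encode proteins of the membrane. Mras (chr9:99385420-99437381, minus strand) encodes a RAS-family GTPase that acts with SHOC2 and protein phosphatase 1 on RAF kinases. Its levels were 6.17, 8.67 and 7.61 CPM in the uninduced monomer line, 4.43, 5.73 and 5.15 after induction, and 3.63, 3.97 and 3.90 in the TCF3-labelled libraries. These 3 groups did not overlap with each other or with the rest. The TCF12-labelled libraries stood at 2.20, 2.46 and 1.13 CPM, and the homodimer, TCF4 dimer and parental samples between 0.650 and 1.85.

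Tpbgl (chr7:99624082-99627103, minus strand) encodes a leucine-rich repeat protein related to trophoblast glycoprotein. It was at 6.17, 3.97 and 3.12 CPM in the uninduced monomer line, at 4.43, 4.83 and 4.72 after induction and at 2.56, 3.61 and 3.01 in the TCF3-labelled libraries. These 3 groups overlapped in sequence. The parental samples stood at 0.871, 1.41 and 0.504 CPM, and the homodimer, TCF4 dimer and TCF12 dimer samples between 0.182 and 0.943. Tpbgl shares exon bases with the antisense gene Gm10605, which had 0 to 9 counts per sample. The counting program's strand setting is not given in the sources used here, so reads of the 2 genes may not be separated.

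Aqp8 (chr7:123462291-123468004, plus strand) encodes an aquaporin, a channel for water and some small solutes. It was the best measured of the 9 genes that peak in the monomer line. Aqp8 was at 42.4, 49.1 and 39.5 CPM in the uninduced monomer line and at 46.5, 55.3 and 51.1 after induction. The other groups followed one another without overlap: 20.1, 22.8 and 22.7 CPM in the TCF3-labelled libraries, 10.4, 8.23 and 9.27 in parental samples, 5.82, 6.99 and 7.60 in the homodimer line, 4.95, 4.61 and 4.92 in the TCF4 dimer line and 2.62, 2.05 and 2.50 in the TCF12-labelled libraries. Across the 7 groups Aqp8 was the gene with the most distinct steps.

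Hsd17b6 (chr10:127990936-128007611, minus strand) encodes a hydroxysteroid dehydrogenase of the short-chain family that acts on androgens and retinoids. It had 4, 15 and 8 counts in the uninduced monomer samples, 13, 11 and 20 in the induced ones and 8, 12 and 8 in the TCF3-labelled libraries. All other samples had between 0 and 5 counts. The means of the first 3 groups were 0.999 ± 0.496, 1.62 ± 0.47 and 0.789 ± 0.233 CPM in that order, and the uninduced monomer samples overlapped with both others (SD, n = 3).

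Gm10636 (chr3:146367153-146378944, minus strand) is annotated as a long intergenic non-coding RNA, with no role that is well known. It was at 2.60, 2.61 and 2.24 CPM in the uninduced monomer line, at 1.25, 1.24 and 1.93 after induction and at 0.743, 1.06 and 0.650 in the TCF3-labelled libraries. The 3 groups did not overlap. Parental samples had 3, 4 and 1 counts, homodimer samples 2, 3 and 1, and the TCF4 dimer and TCF12 dimer groups 1 count each over 3 samples.

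Lncenc1 (chr13:97434970-97497007, plus strand) is a long non-coding RNA known from naive embryonic stem cells. It was at 11.4, 12.1 and 11.3 CPM in the uninduced monomer line and at 11.3, 13.3 and 11.2 after induction. The parental samples were higher, at 20.9 to 23.2 CPM, and the TCF3-labelled libraries higher still, at 55.1, 55.5 and 59.0. The homodimer samples lay between 12.8 and 14.7 CPM, the TCF4 dimer samples between 9.82 and 10.8 and the TCF12 dimer samples between 8.91 and 10.8. Lncenc1 overlaps the opposite-strand gene Gm8756, which had at most 4 counts in a sample, without sharing exon bases.

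Levels between genes can be compared only per length. In the uninduced monomer line Aqp8 had the highest level, at 27.6 CPM per kilobase of exon, and Nkx6-3 the lowest, at 0.366. The other 8 genes lay between these, with Lncenc1 at 3.51, Pou4f2 at 3.43 and Hsd17b6 at 0.634 CPM per kilobase.

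Set against the uninduced monomer line, the 9 genes other than Lncenc1 had lower means in the parental line and in the 4 dimer groups, in an order that differed between genes. In the TCF3-labelled libraries they stood at 24.5% (Nkx6-1) to 79.0% (Hsd17b6) of the uninduced monomer mean, with a median of 51.2%. The medians were 9.16% in the TCF4 dimer line, 8.39% in the TCF12-labelled libraries, 9.85% in the homodimer line and 11.5% in the parental line. The TCF3-labelled libraries ranked directly after both states of the monomer line in 7 of the 9 genes. In 5 of the 9 genes, all 6 monomer samples lay above all 15 others. The uninduced state had the higher mean in 5 genes and the induced state in 4. Since the genes were picked for this pattern, these are descriptions and no test applies to them.

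**Figure D2:**
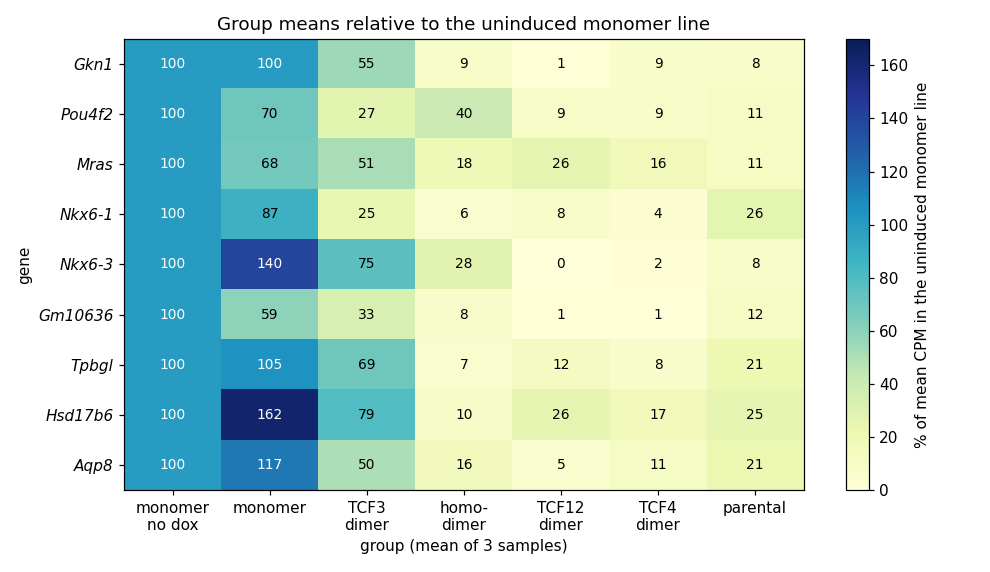
Mean CPM of each group (3 samples) as a percent of the mean in the uninduced monomer line, for the 9 genes that peak in the monomer line; darker cells are higher. The column of TCF3-labelled libraries holds values from 24.5 to 79.0%; in 7 rows it lies between the monomer line and all other columns, and in the rows of Pou4f2 and Nkx6-1 the homodimer line (40.4%) and the parental line (26.1%) are higher.

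Across the 21 samples the 9 genes correlated with one another at r = 0.649 to 0.952 (median 0.848 over 36 pairs, log2 of CPM plus 0.5). Lncenc1 correlated with them at -0.0579 to 0.271. The points share libraries and groups, and the genes were picked for a common pattern, so the coefficients are descriptive. All 10 genes passed the filter on low counts. Gkn1, Nkx6-3, Gm10636 and Hsd17b6 reached 10 counts in 0 of the 12 libraries outside the monomer line and the TCF3-labelled group. Inside these groups they did so in 9, 3, 7 and 5 libraries. Tpbgl and Nkx6-1 reached 10 counts in 9 and 8 libraries inside these groups and in only 1 and 2 of the 12 others. All these genes entered the tests through the groups in which they are high. Their adjusted p values in the comparisons that follow are therefore descriptions. So are the counts and medians over the 10 genes, set beside the share over all genes without anything being read from the contrast. Aqp8 and Lncenc1 were picked with the heterodimer libraries in view, so their differences in comparisons that use those libraries are given with a standard error and no p.

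Induction of the transgene was tested first, since the selection did not use that comparison, although it used the same samples. None of the 10 genes passed at an adjusted p under 0.05 (edgeR quasi-likelihood test, Benjamini-Hochberg over 14311 genes), while Twist1 itself rose as given above. DESeq2 also called 0, and 4 of the 10 genes had an unadjusted p under 0.05, against 9.59% of all genes. Of all genes tested, 1.52% passed as higher and 0.475% as lower. The log2 differences of the 4 were -0.53 ± 0.18 for Pou4f2 (SE, adjusted p 0.190), -0.57 ± 0.21 for Mras (0.267), -0.74 ± 0.29 for Gm10636 (0.347) and 0.22 ± 0.10 for Aqp8 (0.502). For the first 3 of these the samples of the 2 states did not overlap. Without TCF12-labelled sample 1, which enters only the shared estimate of spread, Pou4f2 passed (-0.53, adjusted p 0.0433) and the other 9 did not, while the number of all genes passing went from 286 to 890. The median of the 10 differences was 0.01, against -0.01 over all genes tested.

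The 4 dimer lines were then compared with the parental line, under the same doxycycline treatment. These comparisons share the 3 parental samples, which the selection also used, and the dimer samples entered the selection as groups lower than the monomer line. The TCF3-labelled libraries differed from the parental line in 8 of the 10 genes, all higher, whereas among all genes 16.3% were higher and 12% lower. The 8 include Gkn1, Nkx6-3, Gm10636 and Tpbgl, which entered through the filter as described, and Aqp8 and Lncenc1. Mras rose by 2.16 ± 0.29 on the log2 scale (adjusted p 1.3e-05), Gkn1 by 2.65 ± 0.47 (2.4e-04), Tpbgl by 1.72 ± 0.36 (0.00112) and Pou4f2 by 1.26 ± 0.26 (0.00107). Aqp8 and Lncenc1 were higher by 1.23 ± 0.12 and 1.38 ± 0.09. Nkx6-3 had 22 counts against 2, a ratio of 8.72 (95% counting interval 2.14 to 76.5, adjusted p 0.0118). Its call was lost without parental sample 1 (adjusted p 0.0529).

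Gm10636 rose by 1.48 ± 0.47 against the parental line in the TCF3-labelled libraries (adjusted p 0.0239). The call was lost without parental sample 1 (adjusted p 0.0527), parental sample 3 (0.164) or TCF3-labelled sample 2 (0.0993), with DESeq2 (0.0589) and with no filter on low counts (0.0552). Hsd17b6 was higher by 1.62 ± 0.64, which did not pass (adjusted p 0.0657). It passed without TCF12-labelled sample 1 (0.0239) and without TCF4 dimer sample 2 (0.0464). Nkx6-1 did not pass, at -0.08 ± 0.45 (0.924), an estimate that turned to 0.05 without parental sample 1 and to 0.09 without TCF3-labelled sample 2. The median over the 10 genes was 1.55, against 0.01 over all genes tested.

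In the homodimer line 1 of the 10 genes was higher than in the parental line and 2 were lower, against 4.81% and 4.02% of all genes. Pou4f2 rose by 1.84 ± 0.25 on the log2 scale (adjusted p 4.7e-05), with all 3 homodimer samples above all 3 parental samples. Lncenc1 fell by 0.66 on that scale (± 0.09 SE, adjusted p 7.4e-05) and Aqp8 by 0.45 (± 0.13 SE, adjusted p 0.0406). The call for Aqp8 was lost without parental sample 1 (adjusted p 0.195) or 3 (0.0987), homodimer sample 1 (0.185) or 2 (0.0929), uninduced monomer sample 1 (0.0511) or induced monomer sample 3 (0.0512), with DESeq2 (0.0614) and with no filter on low counts (0.137).

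Nkx6-1 and Tpbgl had lower estimates in the homodimer line that did not pass, at -1.93 ± 0.61 (adjusted p 0.0538) and -1.59 ± 0.57 (0.0987). Without TCF12-labelled sample 1 5 of the 10 genes passed, the 2 additional ones being Nkx6-1 (adjusted p 0.0209) and Tpbgl (0.0313), while the number of all genes passing went from 1265 to 2948. Nkx6-1 also passed without induced monomer sample 1 (0.0289) or 2 (0.0332), without homodimer sample 3 (0.0486), with DESeq2 (0.0395) and with no filter on low counts (0.0380). The median over the 10 genes was -0.47, against 0.00 over all genes tested.

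In the TCF4 dimer line 0 of the 10 genes were higher than in the parental line and 4 were lower, against 7.18% and 5.67% of all genes. Nkx6-1 fell by 2.55 on the log2 scale (± 0.61 SE, adjusted p 0.00801). Lncenc1 stood at -1.07 ± 0.09 and Aqp8 at -0.94 ± 0.13. Both are among the 4 lower genes but were picked with the heterodimer libraries in view, so their share of that count is no test. Gm10636 had 1 count against 8, a ratio of 0.0866 (95% counting interval 0.00195 to 0.646, adjusted p 0.0274). That call was lost without parental sample 1 (0.0802) or 2 (0.169), TCF4 dimer sample 2 (0.0918) or 3 (0.146), with DESeq2 (0.0614) and with no filter on low counts (0.0626). Tpbgl, at -1.49 ± 0.52, did not pass (0.0698) but did without parental sample 3 (0.0409), without TCF12-labelled sample 1 (0.0197) and with DESeq2 (0.0394). The median over the 10 genes was -1.01, against 0.00 over all genes tested. At an unadjusted p under 0.05 in edgeR 5 of the 10 genes differed, 0 of them higher, against 24.0% of all genes in either direction. In a fit of the 2 groups alone 2 of the 10 passed, while the number of all genes passing went from 1839 to 4009. The low-count filter of that fit removed Nkx6-1 and Gm10636, so these were not tested in it.

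In the TCF12-labelled libraries 1 of the 10 genes was higher than in the parental line and 4 were lower, against 15.5% and 11.5% of all genes. Aqp8 stood at -1.97 ± 0.15 and Lncenc1 at -1.10 ± 0.10 on the log2 scale (SE). The 4 lower genes include these, which were picked with the heterodimer libraries in view, so that part of the count is no test. Mras was higher by 1.16 ± 0.33 (0.0131), and its samples overlapped with the parental ones. The call for Mras was lost without parental sample 2 (0.0650) or 3 (0.0622), without TCF12-labelled sample 2 (0.0588) and in a fit of the 2 groups alone (0.182). The median over the 9 genes other than Nkx6-3, which had 0 counts against 2, was -1.10, against 0.02 over all genes tested. In a fit of the 2 groups alone 2 of the 10 genes and 824 of all genes passed, against 3866 in the fit of all samples. The low-count filter of that fit removed Nkx6-1 and Gm10636, so these were not tested in it.

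Nkx6-1 was lower by 1.61 ± 0.56 in the TCF12-labelled libraries, a log2 fold change of -1.61 (adjusted p 0.0402). It did not pass without parental sample 1 (0.109) or 3 (0.107) or without TCF12-labelled sample 2 (0.0570) or 3 (0.0688). Gm10636 had 1 count against 8, a ratio of 0.104 (95% counting interval 0.00234 to 0.774, adjusted p 0.0281). That call was lost without parental sample 1 (0.0707) or 2 (0.139), without TCF12-labelled sample 1 (0.0665) or 3 (0.0702), with DESeq2 (0.0543) and with no filter on low counts (0.0515). Tpbgl, at -0.86 ± 0.50, did not pass (0.199). Without TCF12-labelled sample 1, which held the highest Tpbgl level of that group, the value was -1.47 (0.0440).

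**Figure D3:**
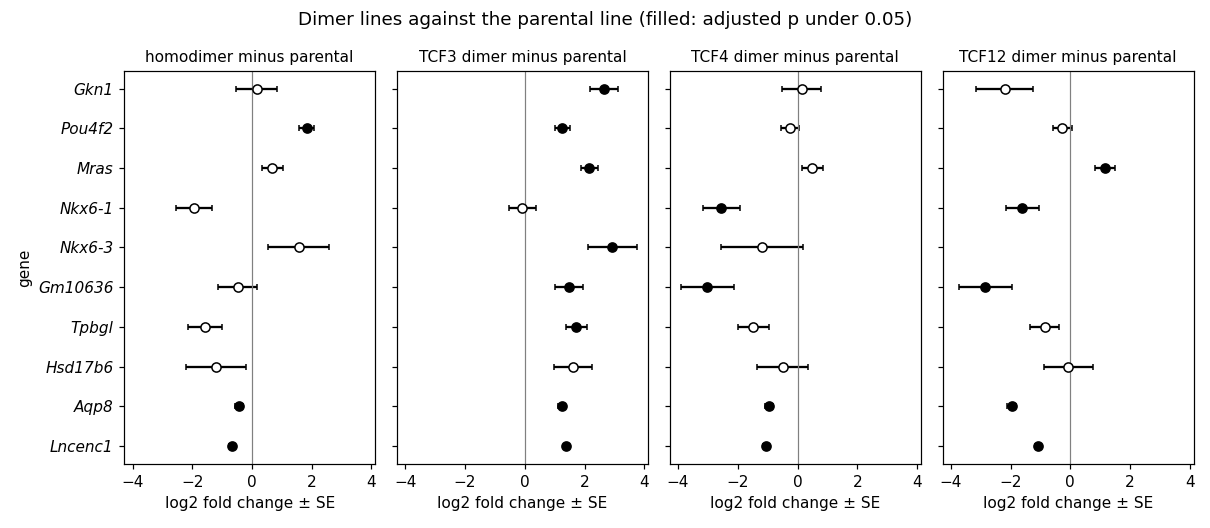
Log2 fold change against the parental line with its standard error for the 10 genes in the 4 dimer groups, on a common axis; filled points have an adjusted p under 0.05. In the TCF3 dimer panel 8 filled points lie to the right of 0, and in the TCF4 dimer panel 4 lie to the left. Aqp8 and Lncenc1 are among the filled points of the TCF3, TCF4 and TCF12 dimer panels. Both were picked with the heterodimer libraries in view, so their fill there is not read as a test. Nkx6-3 is not drawn in the TCF12 dimer panel, where it had 0 counts.

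The TCF3-labelled libraries were then compared directly with the other dimer lines. For the genes that entered through the filter because they are high in these libraries or the monomer line, the adjusted p is a description. Against the homodimer line 8 of the 10 genes were higher and 0 lower, against 13.6% and 9.35% of all genes. The 8 include Gkn1, Nkx6-1, Gm10636, Tpbgl and Hsd17b6, which entered through the filter as described, and Aqp8 and Lncenc1. Tpbgl was higher by 3.31 ± 0.44 on the log2 scale (adjusted p 1.7e-05), Gkn1 by 2.49 ± 0.45 (3.8e-04), Gm10636 by 1.97 ± 0.50 (0.00730) and Mras by 1.49 ± 0.26 (3.3e-04). Lncenc1 and Aqp8 were higher by 2.05 ± 0.09 and 1.68 ± 0.12. Hsd17b6 had 28 counts against 3, a ratio of 7.87 (95% counting interval 2.43 to 40.5, adjusted p 0.0102). The samples of these genes did not overlap between the 2 groups.

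Nkx6-1 was higher by 1.85 ± 0.59 in the TCF3-labelled libraries than in the homodimer line (adjusted p 0.0288). The call was lost without homodimer sample 1 (0.113) or 2 (0.0716) and without TCF3-labelled sample 1 (0.115) or 3 (0.0506). Nkx6-3 was higher by 1.36 ± 0.62, which did not pass (0.134). Pou4f2 went the other way, at -0.58 ± 0.21 (0.0505). It passed without any 1 of parental sample 2 (0.0492), parental sample 3 (0.0352), uninduced monomer sample 2 (0.0412), uninduced monomer sample 3 (0.0343), TCF3-labelled sample 2 (0.0169) or TCF12-labelled sample 1 (0.0212). It also passed with RLE size factors (0.0483) and in a fit of the 2 groups alone (0.0258).

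For the comparisons with the TCF4 dimer and TCF12 dimer groups, Aqp8 and Lncenc1 are left untested because they were picked from a comparison among these lines. Against the TCF4 dimer line all 8 remaining genes were higher in the TCF3-labelled libraries, with 11.8% of all genes higher and 7.90% lower. Of the 8, Gkn1, Nkx6-1, Nkx6-3, Gm10636, Tpbgl and Hsd17b6 entered through the filter because they are high in the monomer line or these libraries. Tpbgl differed by 3.21 ± 0.40 (adjusted p 1.3e-05), Gkn1 by 2.51 ± 0.41 (2.2e-04), Nkx6-1 by 2.47 ± 0.60 (0.00605), Mras by 1.67 ± 0.25 (1.0e-04) and Pou4f2 by 1.53 ± 0.25 (2.1e-04). Nkx6-3 had 22 counts against 1, a ratio of 25.2 (95% counting interval 4.07 to 1040, adjusted p 0.00254). Gm10636 had 29 counts against 1, a ratio of 33.2 (5.5 to 1350, adjusted p 8.7e-05). Hsd17b6 was higher by 2.12 ± 0.62 (0.0205), a call lost without TCF3-labelled sample 2 (0.0895) and without TCF4 dimer sample 2 (0.0682) or 3 (0.0688). In a fit of the 2 groups alone 4 of the 8 genes passed, while the number of all genes passing went from 2818 to 5661. The low-count filter of that fit removed Nkx6-1, Nkx6-3, Gm10636 and Hsd17b6, so these were not tested in it.

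Against the TCF12-labelled libraries, 6 of the 8 genes were higher and 0 lower, with 9.71% of all genes higher and 9.06% lower. Of the 6, Gkn1, Nkx6-3, Gm10636 and Tpbgl entered through the filter in the same way. Tpbgl differed by 2.58 ± 0.38 (adjusted p 1.2e-04), Pou4f2 by 1.53 ± 0.26 (4.2e-04) and Mras by 1.00 ± 0.24 (0.00775). Gkn1 had 42 counts against 1, a ratio of 40.1 (95% counting interval 6.81 to 1620, adjusted p 1.7e-05), and Gm10636 29 against 1, a ratio of 27.7 (4.59 to 1130, adjusted p 2.5e-04). Nkx6-3, with 22 counts against 0, was at least 2.3-fold higher when the empty group is set to 3 counts per library (adjusted p 0.00225). In a fit of the 2 groups alone 2 of the 8 genes and 236 of all genes passed, against 2686 in the fit of all samples. Pou4f2 (0.0578) and Mras (0.208) stayed in that fit and did not pass. Its low-count filter removed Nkx6-1, Nkx6-3, Gm10636 and Hsd17b6.

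Nkx6-1 and Hsd17b6 were higher than in the TCF12-labelled libraries by 1.53 ± 0.54 (adjusted p 0.0565) and 1.69 ± 0.61 (0.0604), which did not pass. Nkx6-1 passed without induced monomer sample 1 (0.0376) or 2 (0.0417), without homodimer sample 1 (0.0401), with DESeq2 (0.0481) and with no filter on low counts (0.0453). Hsd17b6 passed without TCF4 dimer sample 2 (0.0469) and without TCF12-labelled sample 1, where its difference was 2.57 (0.00837). The median differences over the genes tested were 1.91 against the homodimer line, 2.49 against the TCF4 dimer line and, with Nkx6-3 at its bound, 1.61 against the TCF12-labelled libraries. Over all genes these medians were 0.00, 0.00 and -0.01.

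The genes most like each member were read from Pearson's r across the 21 samples, up to 3 per member, without a test. Of the 30 names 13 were retained without TCF12-labelled sample 1 and 18 with a pseudocount of 2, and the other names changed under these settings. For Aqp8 they were AA986860 (r = 0.993), Prss12 (0.987) and Plbd1 (0.982), and for Gm10636 Rnase4 (0.982), Mttp (0.972), the microsomal triglyceride transfer protein of lipoprotein assembly, and Npl (0.972). For Tpbgl they were Sparc (0.971), a matrix protein abundant in parietal endoderm, Gas6 (0.970) and Kdelr3 (0.970). Gkn1 was most like Nptn (0.972), Spock1 (0.970) and Flrt3 (0.966), and Nkx6-1 most like Hhex (0.956), a homeobox gene of anterior endoderm, Shisa5 (0.951) and Ctsc (0.949).

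Pou4f2 was most like Nr0b1 (0.956), Gm13247 (0.955) and Zfp42 (0.952), of which Nr0b1 and Zfp42 are known from naive pluripotent cells. Nr0b1 was also among the 3 for Nkx6-3 (0.920), after Irak3 (0.925) and Cdyl2 (0.924). Hsd17b6 was most like As3mt (0.922), Stc2 (0.915) and Mvp (0.914). Mras, on chromosome 9, was most like genes that included Tsc22d1 (0.965) and Mzt1 (0.948), both on chromosome 14. The 3 most like Lncenc1, on chromosome 13, all lie on chromosome 11: Zkscan17 (0.961), Top3a (0.949) and Srebf1 (0.925), the last encoding a regulator of lipid synthesis. Zkscan17 stood at 125.6 CPM in the TCF3-labelled libraries and at 70.3 to 90.3 CPM in the other 6 group means.

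The genes beside each member on the chromosome were examined as well, since the selection did not use them. The nearest tested gene on each side of the 10 genes gave 20 neighbours at 7.38 to 854.0 kb. Between the uninduced monomer line and the parental line 3 of the 20 (15.0%) were higher and 3 (15.0%) lower, against 10.5% and 9.43% of all genes. Gkn2, the second gastrokine gene, 22.4 kb from Gkn1, rose by 2.73 ± 0.61 on the log2 scale (adjusted p 0.00292). It stood at 1.28 ± 0.31 CPM in the uninduced monomer line, 0.954 ± 0.193 in the TCF3-labelled libraries and 0.175 ± 0.164 in the parental line (SD, n = 3). Gkn2 had at most 13 counts in a sample, and its parental mean lies below the level of 3 counts. Like Gkn1 it passed the filter through the groups in which it is high. Lpar3, a lysophosphatidic acid receptor gene 81.0 kb from Gm10636, rose by 1.53 (0.00223), and Arhgef28, 402.0 kb from Lncenc1, by 0.49 (0.0239).

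The 3 lower neighbours were Arrb1, 17.3 kb from Tpbgl (-1.06, adjusted p 3.3e-05), Antxr1, 9.83 kb from Gkn1 (-0.79, 0.00399), and Gpat4, 12.3 kb from Nkx6-3 (-0.36, 0.00659). The neighbours of Pou4f2, Mras, Nkx6-1, Hsd17b6 and Aqp8 did not pass, and the 2 of Aqp8 differed by 0.00 (Lcmt1, 31.9 kb) and 0.06 (Zkscan2, 7.38 kb). Enc1, 182.0 kb from Lncenc1, stood at 193.0 CPM in the TCF3-labelled libraries and 197.1 in the parental line. Upon induction 0 of the 20 neighbours passed.

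**Figure D4:**
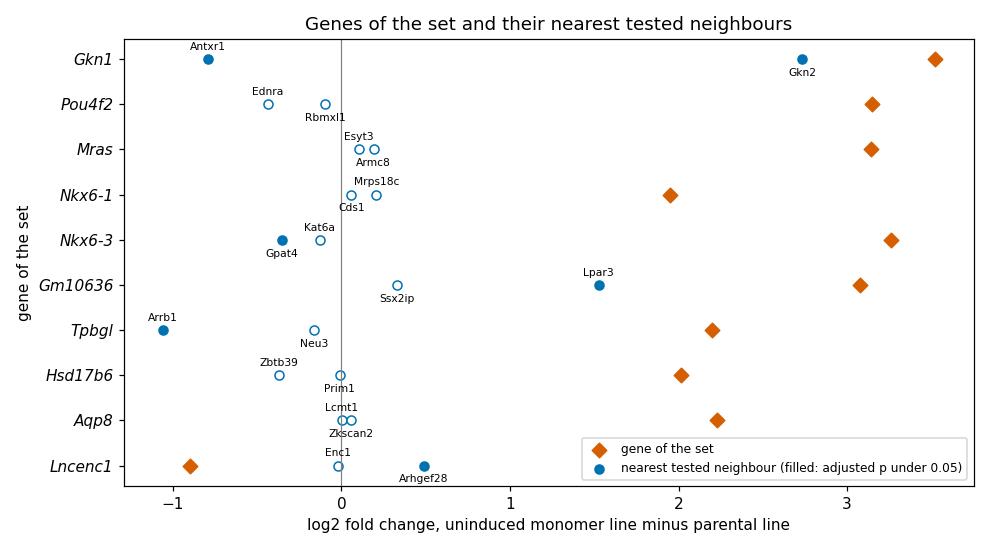
Log2 fold change of the uninduced monomer line against the parental line for the 10 genes (diamonds) and for the nearest tested gene on each side (circles; filled, adjusted p under 0.05). Gkn2 at 2.73 and Lpar3 at 1.53 lie on the side of their neighbours Gkn1 and Gm10636, and most other circles lie near 0.

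Relatives of each gene and lists of cell type markers were counted without the 10 genes themselves, in the same comparison of the uninduced monomer line with the parental line. Of 11 other gastrokine and stomach epithelium genes only 2 had enough counts to be tested, and Gkn2 alone was higher. The gastric genes Tff1, Tff2 and Muc5ac had 0 counts in every sample. Muc6, Cldn18, Anxa10 and Ctse had at most 3, 4, 5 and 2 counts in a sample, and Gkn3 and Vsig1 at most 1. Among the other Nkx6 family and partner genes 0 of 4 tested passed. Nkx6-2 stood at 1.07 ± 0.28 CPM against 0.522 ± 0.252 (SD, n = 3), a difference that missed the threshold (adjusted p 0.0702, edgeR).

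Of 7 Pou4f family and retinal ganglion cell genes, 2 were higher and 2 lower. Sncg rose by 2.47 ± 0.57 (adjusted p 0.00375) and Pou4f1 by 0.82 ± 0.20 (0.00708), while Gap43 (-1.05) and Stmn2 (-0.62) fell. Sncg had at most 22 counts in a sample, and its parental mean of 0.324 ± 0.380 CPM (SD, n = 3) lies at the level of 3 counts. Of 16 genes of the RAS pathway around Mras, 4 were higher and 0 lower: the feedback inhibitors Spry4 (0.58) and Spry2 (0.36), Rras2 (0.41) and Araf (0.32). Of 5 other aquaporins Aqp3 alone was higher, at 3.88 against 1.51 CPM (adjusted p 0.00898). Aqp6 (1.04), Aqp11 (0.24), Mip (0.06) and Aqp5 (-0.27) did not pass. Of 6 genes of the 17-beta hydroxysteroid dehydrogenase list, Hsd17b14 (1.76 ± 0.16) and Hsd17b11 (0.30 ± 0.09) were higher. Hsd17b4, Hsd17b7, Hsd17b10 and Hsd17b12 lay between -0.29 and 0.06 and did not pass. Tpbg, the paralogue of Tpbgl, differed by -0.06 ± 0.10 and did not pass (0.775).

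Markers of extraembryonic endoderm were higher, as 9 of the 10 genes were, in the uninduced monomer line than in the parental line. In the uninduced monomer line 20 of 24 tested genes of the primitive endoderm list were higher than in the parental line and 0 were lower, with a median of 1.81 against 0.00 over all genes tested. Col4a2 (1.98 ± 0.09) and Col4a1 (1.79 ± 0.11), which encode basement membrane collagen, Gata4 (1.93 ± 0.11), a transcription factor of this lineage, and the endocytic adaptor Dab2 (1.70 ± 0.09) were among them. The summed level of the list was 6406 to 7645 CPM in the uninduced monomer samples, 6294 to 6953 after induction, 3906 to 4938 in the TCF3-labelled libraries and 2026 to 2120 in the parental line. It was 1408 to 1539 CPM in the homodimer line, 1391 to 1474 in the TCF4 dimer line and 1115 to 1545 in the TCF12-labelled libraries. As for Aqp8, the monomer line was highest, followed by the TCF3-labelled libraries, the parental line and the 3 other dimer groups, and the part of this cell type in the levels of the 9 genes was not tested. In the homodimer line 13 of the 24 list genes were lower than in the parental line and 1 was higher. Of the 10 genes 2 were lower there and 1, Pou4f2, was higher by 1.84. In the TCF3-labelled libraries 19 of 24 were higher and 2 lower, and of the 10 genes 8 were higher and 0 lower, with Nkx6-1 at -0.08 not passing. In the TCF12-labelled libraries 16 of 24 were lower and 2 higher, and of the 10 genes 4 were lower and 1, Mras, was higher by 1.16. The TCF3-labelled libraries were higher than the TCF4 dimer line in 21 of 24 genes and lower in 0 (median 1.79).

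Of 20 naive pluripotency genes, 12 were higher in the uninduced monomer line than in the parental line and 1 was lower. Nr0b1 (1.77 ± 0.13), Tbx3 (1.64 ± 0.11), Zfp42 (1.43 ± 0.11) and Fgf4 (1.33 ± 0.08) rose, and Nanog fell by 1.47 (± 0.14 SE). The summed level of this list was 1170 to 1242 CPM in the uninduced monomer line, 783 to 835 in the parental line, 697 to 833 in the TCF3-labelled libraries and 536 to 633 in the TCF4 dimer and TCF12 dimer groups. Lncenc1, known from the same cells, did not follow this sum: it was highest in the TCF3-labelled libraries, whose list sums overlapped with the parental ones. Counted by gene, 7 of the 20 were higher and 4 lower in the TCF3-labelled libraries than in the parental line (median 0.52). Compared with the TCF4 dimer line 12 were higher and 3 lower (median 0.82), and compared with the TCF12-labelled libraries 12 and 1 (median 0.89).

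All 9 tested genes of the primitive streak list were lower in the uninduced monomer line than in the parental line (median -3.28), among them T (-4.06 ± 0.24), Fgf8 (-2.78 ± 0.16) and Eomes (-2.24 ± 0.16). They were lower than in the parental line in each of the 4 dimer groups too, and the part of this list in the levels of the 10 genes was not tested. Of 7 epiblast genes 2 were higher and 1 lower, of 5 neural progenitor genes 0 and 2, of 5 trophoblast genes 0 and 1, and of 6 fibroblast genes 1 and 1. Upon induction Nid1 of the endoderm list and Neurod1 of the Nkx6 list rose, Fgf4 and Fgf8 fell, and 0 genes of the other 10 lists passed. In the TCF3-labelled libraries the summed fibroblast list was 74.1 to 91.7 CPM, against 37.7 to 58.0 in all other groups, and its part in the levels of the 10 genes was not tested.

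**Figure D5:**
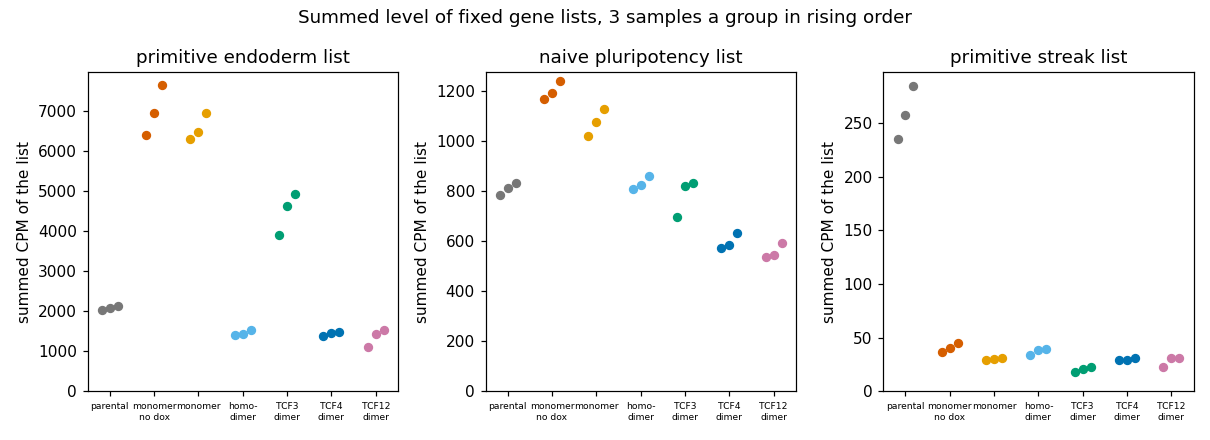
Summed CPM of 3 marker lists (linear axes from 0) in each group, with the 3 samples of a group drawn in rising order. The primitive endoderm sum is 6294 to 7645 CPM in the 6 monomer samples and 3906 to 4938 in the TCF3-labelled libraries, and the primitive streak sum is high in the parental line only.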

How the data were processed

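RNA was measured by sequencing poly(A) libraries of 21 embryoid body samples in 7 groups of 3, assigned from the sample labels. The deposited tables hold raw counts per gene symbol, made by the authors with TopHat2 and HTSeq on mm10 (GRCm38) after FastQC, per the submitters' processing notes; versions and the strand setting are not given in the sources used here. Of the symbols, 25 had turned into dates in 18 of the 21 tables, and the tables were joined by position.

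All 21 samples entered 1 fit in edgeR 4.0.16 (R 4.3.3, limma 3.58.1) with TMM scaling and filterByExpr (minimum count 10, minimum total 15), which left 14311 genes. The quasi-likelihood test was used with Benjamini-Hochberg adjustment over all of them and a threshold of 0.05; the script was tested on simulated data. CPM were computed from the counts with TMM. Totals of 6648842 to 15999693 set the precision, and intervals and floors cover counting error only.

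The members and lists were chosen with earlier results of these data known. Comparisons that selected the members are described without a test. Named besides the members are the 3 most correlated genes of each (log2 of CPM plus 0.5), the nearest tested gene on each side, and in each list up to 4 passing genes with the smallest adjusted p and tested relatives of a member; 1 gene that the rule names is not reported here. The lists cover gastrokine and stomach genes, Nkx6 and partner genes, Pou4f and retinal ganglion cell genes, RAS signalling, aquaporins, hydroxysteroid dehydrogenases, trophoblast glycoproteins, naive pluripotency, primitive endoderm, primitive streak, epiblast, neural progenitor, trophoblast and fibroblast genes. Coordinates are from GENCODE M21 (GRCm38) and promoter windows from RefSeq. Alternatives were other size factors, no scaling, other filters, a fit of the 2 groups alone, a replicate block, DESeq2 1.42.0 and leaving out each sample.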

Additional observations from a re-analysis of the deposited data

Results flagged for a closer look

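Aqp8, Lncenc1 and Gm10636 had estimates of opposite sign against the parental line in 2 dimer groups, and the difference between the groups was past the threshold. Aqp8 and Lncenc1 were picked with the TCF3-labelled libraries in view and Gm10636 passed the filter through its high groups, so this is a description and no independent support. Aqp8 stood at 1.23 on the log2 scale in the TCF3-labelled libraries and at -0.45 in the homodimer line, a difference of 1.68. Its homodimer value did not pass under several alternatives (adjusted p 0.195 without parental sample 1, 0.0614 with DESeq2, 0.137 with no filter on low counts, edgeR unless named). For Lncenc1 the values were 1.38 and -0.66, a difference of 2.05. Gm10636 stood at 1.48 in the TCF3-labelled libraries, at -3.02 in the TCF4 dimer line and at -2.84 in the TCF12-labelled libraries. The differences were 4.50 and 4.33, and each rests on 29 counts against 1. The 3 calls of Gm10636 against the parental line were lost when single samples were left out, as given above.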

How the results depend on the processing

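Of the values of a member's log2 difference under an alternative, 1999 kept their direction and their side of the threshold, 43 lost the call, 30 gained it and 22 changed sign. In a fit of the 2 groups alone the genes passing numbered 682 for induction (64.1% higher), 3114, 6674, 4009 and 824 for the homodimer, TCF3, TCF4 and TCF12 dimer groups against the parental line, 5955, 5661 and 236 (94.5% higher) for the TCF3-labelled libraries against the homodimer, TCF4 and TCF12 dimer groups, and 5032 for the uninduced monomer line against the parental line. In the 21-sample fit these were 286, 1265, 4058, 1839, 3866, 3282, 2818, 2686 and 2854. The cause was not tested. Members passing in the fit of 2 groups were 2 for the TCF4 and 2 for the TCF12 dimer group against the parental line, and 4 and 2 for the TCF3-labelled libraries against the same 2 groups. The low-count filter was applied again in these fits and removed members that had passed before, Nkx6-1 and Gm10636 among them. Of the members that stayed in, Mras lost its call for the TCF12 dimer group against the parental line. Mras and Pou4f2 lost theirs for the TCF3-labelled against the TCF12-labelled libraries.

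Leaving out 1 sample moved the genes passing, in the same order, over 173 to 890, 919 to 2948, 3099 to 6700, 1249 to 4045, 2590 to 6160, 2409 to 5988, 1959 to 5827, 1455 to 4974 and 2020 to 5312. The members passing ranged over 0 to 1 for induction, 2 to 5, 6 to 9, 3 to 5 and 3 to 5 against the parental line, and 7 to 9, 7 to 8 and 6 to 7 for the comparisons between dimer groups. Without TCF12-labelled sample 1 the all-gene counts were 890, 2948, 6700, 4045, 4367, 5988, 5827, 3609 and 5312, with 13 of the 30 most correlated genes retained; 18 of 30 were retained with a pseudocount of 2.

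Sign changes were seen in values that did not pass. Gkn1 upon induction turned to 0.0191 without TMM, 0.0013 with no filter and 0.0105 with a replicate block. With 1 sample left out its value ranged from -0.17 to 0.23, that of Nkx6-1 from -0.59 to 0.0620, of Tpbgl from -0.0853 to 0.40 and of Lncenc1 from -0.0527 to 0.0746. Against the parental line the ranges were -0.15 to 0.86 (Gkn1, homodimer), -0.33 to 0.0864 (Nkx6-1, TCF3 dimer), -0.14 to 0.84 (Gkn1, TCF4 dimer), -0.45 to 0.0637 (Pou4f2, TCF4 dimer), -0.41 to 0.0645 (Pou4f2, TCF12 dimer) and -0.96 to 0.35 (Hsd17b6, TCF12 dimer).

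Whether the replicate numbers pair the samples was not settled. Same-numbered samples correlated at a mean r of 0.0214 over 63 pairs (-0.222 to 0.344) and other-numbered ones at -0.0102 over 126 pairs. Of 21 samples, 12 correlated best with their own number out of 3, so a weak pairing is possible. With the replicate block the genes passing numbered 264, 1262, 4092, 1828, 3856, 3293, 2855, 2691 and 2845, and Pou4f2 passed between the TCF3 dimer and homodimer groups (-0.58, adjusted p 0.0331). Counts below 10 per sample limit the precision of Gkn1, Nkx6-3, Gm10636 and Hsd17b6 in all 12 libraries outside the monomer and TCF3-labelled groups. Nkx6-3, Gm10636 and Hsd17b6 also fell below 10 counts in some libraries of those groups. Nkx6-1 and Tpbgl reached 10 counts in only 2 and 1 of the 12.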
